A study of Mus musculus with 6 samples.

Results

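Integrins and the matrix proteins that they bind were compared between mouse acute erythroid leukemia cells and normal erythroid precursors in RNA sequencing libraries of sorted bone marrow cells. The genes were chosen by name: those whose symbol begins as an integrin alpha or beta chain, a collagen, a laminin chain or a thrombospondin. Fibronectin (Fn1), Sparc, Bgn, Dcn, Lum, Fbln1 and Fbln2 were added by name. The platelet pair Itga2b and Itgb3 was kept out. The choice gave 46 of the 13007 genes in the table, where Lum, Fbln1, Fbln2, Col5a2, Itgb4 and all laminin beta chains had no row. Sums over chains leave these out. The 46 held 13 alpha and 5 beta integrin chains, 19 collagen chains, 2 laminin chains, Thbs1 and 4 other matrix genes. The last 2 carry such a name only because their products were first found beside an integrin or a collagen.

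The leukemia group (AEL, 3 libraries) came from bone marrow leukemic cells carrying an ERG overexpression vector that also expresses GFP, sorted as GFP-positive cells, with the genotype label Trp53-/- and ERG-expressing. The normal group (NC, 3 libraries) came from wild-type marrow stained for CD71 and Ter119 and then sorted. All 6 samples are labelled as primary cells of the strain C57BL/6, and the tissue label of all 6, NC included, lists mutations of SETBP1 and ASXL1, at odds with the wild-type genotype given for NC. No age, treatment or time is given, and the labels call the libraries biological replicates without saying whether each was a separate animal or leukemia, so the p-values reflect no more than the spread among these 6 libraries, which may be technical. Since each group was sorted on its own markers, effects of sorting and of leukemia cannot be told apart in any comparison.

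An integrin is a pair of an alpha and a beta chain in the cell membrane that grips matrix proteins or receptors on neighbouring cells and links them to the actin skeleton. Erythroblasts mature in islands around a central macrophage, held by the pair of Itga4 and Itgb1 on the erythroblast and Vcam1 on the macrophage. Progenitors also use Itga4 and Itga5 to hold fibronectin in the marrow. Chains that pair with Itgb2 belong to leukocytes, and most collagens of marrow are made by stromal and bone-forming cells.

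Library totals ran from 8171676 to 9945330 counts. Values are CPM, counts scaled to the library total after TMM scaling, a correction for differences in library makeup. A gene was called when the edgeR quasi-likelihood test gave a Benjamini-Hochberg adjusted p under 0.05 over all 12427 genes tested. Of all these genes 52.8% were called, 23.9% higher and 29.0% lower in AEL, and the median log2 fold change was -0.05. With library totals alone that median was 0.14, and the share of called genes that were higher went from 45.2% to 55.2%. Trp53 was at 1080 ± 98.3 CPM in the libraries labelled Trp53-/- and at 171 ± 8.11 CPM in NC (SD, n = 3 each), and gene-level counts do not show which exons were read, so it does not check the genotype label. Erg was at 677 ± 117 and 6.83 ± 2.17 CPM.

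The NC libraries held RNA of other marrow cells beside erythroid RNA. The 12 erythroid markers summed to 39130 to 51878 CPM in NC and 4406 to 10500 CPM in AEL. Of the 12, 8 were called lower and 0 higher, and Gata1, Epor, Ermap and Icam4 were not called. The globin genes Hbb-bs and Hba-a1 averaged 15711 and 17793 CPM in NC and 984 and 2357 CPM in AEL. The 14 macrophage markers summed to 3930 to 4735 CPM in NC and 9.57 to 45.3 CPM in AEL, and Spic, Timd4 and Vsig4 were at 0 in every AEL library. The 13 neutrophil markers summed to 8182 to 9555 CPM in NC and to 20.3, 1202 and 125 CPM in AEL replicates 1, 2 and 3, with none at 0 throughout AEL. The 10 measured markers of stroma and endothelium summed to 69.2 to 88.5 CPM in NC and 5.18 to 10.5 CPM in AEL, where Adipoq was at 0 throughout. Of these lists 14 of 14 macrophage, 12 of 13 neutrophil and 6 of 8 tested stromal markers were called lower and 0 higher. The 11 B cell markers, all called lower, summed to 243 to 296 CPM in NC and 1.80 to 2.93 CPM in AEL, and 3 of 3 tested T and NK cell markers were lower. Of 9 tested megakaryocyte markers 3 were higher and 4 lower, and of 9 of mast cells, basophils and eosinophils 1 was higher and 5 were lower. In such bulk samples fewer cells of a type and less RNA per cell cannot be told apart.

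Of the 46 genes 40 passed the filter of at least 1 CPM in 3 libraries and were tested. Among them 20 were called lower, or 50% against 29.0% of all genes tested, and 8 were called higher, or 20% against 23.9%. The median log2 fold change of the tested genes was -2.63, or -2.07 with the 2 tested genes that were at 0 in every AEL library set at their bound, against -0.05 for all genes. These figures describe the table only. 14 of the 40 passed the filter through NC alone and 1 through AEL alone, and such genes had to differ. The 14 were all among the 20 called lower, so the filter had a part in both the number and the size of the falls. The 20 falls were large: 19 of them had a fitted fold change of at least 8-fold, including 2 genes at 0 whose bound is smaller. These 19 were 47.5% of the 40 tested genes, while 11.9% of all genes tested were called at least 8-fold lower. The plot of fold changes shows the gap between the few genes that rose and the many that fell.

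**Figure D1:**
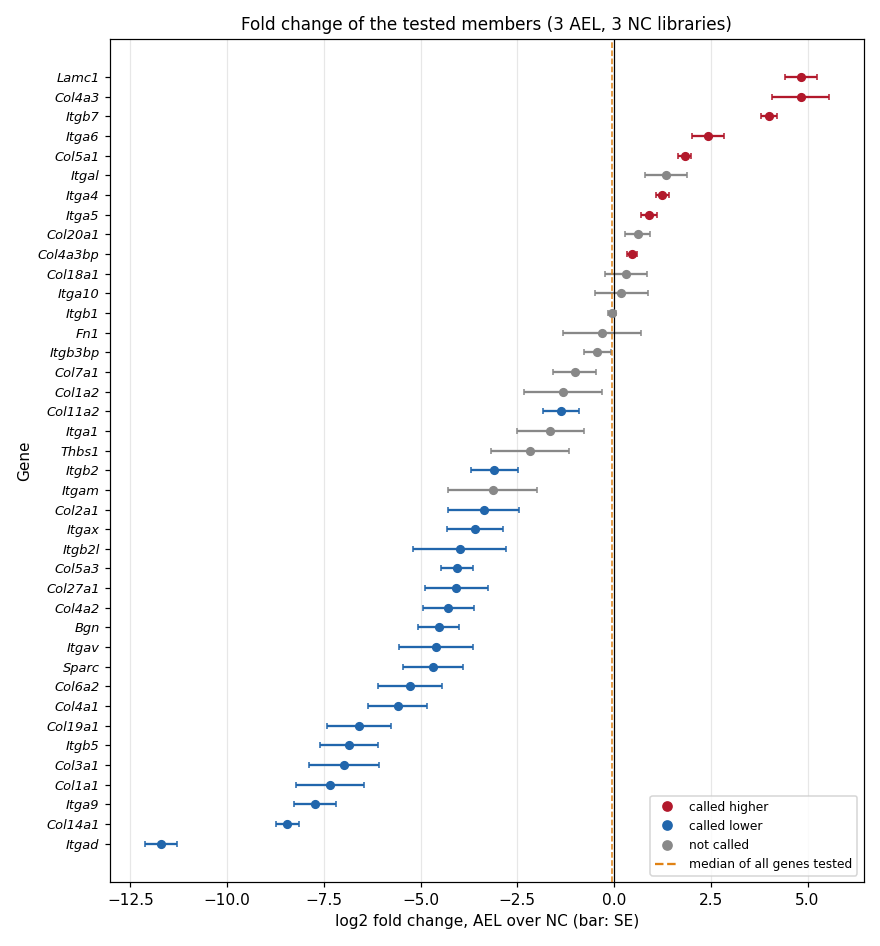
Log2 fold change of AEL over NC (x axis) for the 40 tested genes (y axis), with bars of 1 SE; red points were called higher, blue lower and grey not called, and the dashed line is the median of all genes tested. Values run from -11.72 for Itgad to 4.83 for Lamc1, with Col4a3 at 4.82.

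The genes that rose included the integrin chains Itga4, Itga5, Itga6 and Itgb7 and the fibrillar collagen Col5a1. The DNA just before the start of transcription is shown for 3 genes that rose, Itgb7, Itga4 and Col5a1, and for Itgb5, which fell, since these stand for the chains whose balance changed. The sequences are RefSeq's, build GRCm38.p6, 250 bases before the start, 5′ to 3′ on the gene's strand. Capitals mark matches of the 6 motifs searched on both strands.
Itgb7 (chr15:102231936-102232185, minus strand): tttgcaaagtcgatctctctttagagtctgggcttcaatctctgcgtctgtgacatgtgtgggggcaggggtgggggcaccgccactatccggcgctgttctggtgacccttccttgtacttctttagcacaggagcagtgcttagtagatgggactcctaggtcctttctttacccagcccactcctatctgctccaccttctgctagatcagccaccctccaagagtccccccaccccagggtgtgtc
Itga4 (chr2:79255176-79255425, plus strand): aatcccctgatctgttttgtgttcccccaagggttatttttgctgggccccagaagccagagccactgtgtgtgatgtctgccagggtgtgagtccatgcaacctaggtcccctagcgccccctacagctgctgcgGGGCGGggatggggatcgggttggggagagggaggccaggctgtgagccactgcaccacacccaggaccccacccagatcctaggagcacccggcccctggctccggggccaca
Col5a1 (chr2:27886175-27886424, plus strand): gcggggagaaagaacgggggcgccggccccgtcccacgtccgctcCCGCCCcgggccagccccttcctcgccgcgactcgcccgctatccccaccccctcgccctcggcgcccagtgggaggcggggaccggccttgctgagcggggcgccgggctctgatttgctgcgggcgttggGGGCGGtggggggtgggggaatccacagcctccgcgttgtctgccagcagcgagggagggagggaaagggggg
Itgb5 (chr16:33829415-33829664, plus strand): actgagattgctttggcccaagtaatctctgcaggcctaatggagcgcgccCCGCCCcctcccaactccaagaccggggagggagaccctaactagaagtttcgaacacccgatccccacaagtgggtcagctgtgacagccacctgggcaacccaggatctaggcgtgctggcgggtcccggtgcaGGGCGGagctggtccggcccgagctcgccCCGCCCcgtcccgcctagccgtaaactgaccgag

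The motifs were CCGGAA, the core of many ETS factor sites, AGATAA and TGATAA of GATA factors, AGAGGAAG of the ETS factor PU.1, TGACTCA of AP-1 and GGGCGG of SP1. Only GGGCGG was found in the 4 printed stretches, 2 times before Col5a1, 1 time before Itga4 and 3 times before Itgb5, and no motif was found before Itgb7. Promoter windows of 300 bases, 250 before and 50 after the start, were available for 31 of the 46 genes, with 33 windows in all. CCGGAA was in 2 of the 33 windows (6.06%) and in 14.9% of all 32851 windows. GGGCGG was in 19 (57.6%) and in 35.7% of all windows. AGATAA was in 3, TGATAA in 0, AGAGGAAG in 3 and TGACTCA in 3 windows, against 11.2%, 9.05%, 4.55% and 5.20% of all windows. These motifs are short, CCGGAA and AGAGGAAG can overlap at GGAA, and a match is no sign of binding.

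Itgb7 showed the clearest change among the beta chains. It pairs with Itga4 to bind the gut vessel receptor Madcam1 and, more weakly, Vcam1 and fibronectin, and lies at chr15:102215995-102231944 (GRCm38). Its level was 633, 413 and 465 CPM in AEL replicates 1 to 3 and 27.7, 34.5 and 32.7 CPM in NC. Every AEL library was at least an order of magnitude above every NC library, and the gene rose 15.9-fold (log2 fold change 3.99, SE 0.21, edgeR adjusted p = 9.21e-05). Itgb1, the most widely shared beta chain, was at 398, 352 and 334 CPM in AEL and 392, 368 and 367 CPM in NC. The groups overlapped, and its log2 fold change of -0.06 (SE 0.11) was not called (edgeR adjusted p = 0.695).

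The remaining beta chains fell. Itgb2, the common chain of the leukocyte integrins (chr10:77530252-77565708), was at 29.3, 40.9 and 6.41 CPM in AEL and 174, 237 and 240 CPM in NC, an 8.52-fold fall (edgeR adjusted p = 0.00559). Itgb5, which pairs with Itgav to bind vitronectin (chr16:33829665-33949338), was at 0, 1.41 and 0.275 CPM in AEL and 61.3, 62.0 and 74.0 CPM in NC, for a log2 change of -6.85 (SE 0.75). Itgb2l, a relative of Itgb2 known from neutrophil precursors, was at 0, 10.7 and 0.732 CPM in AEL and 50.4, 60.6 and 69.9 CPM in NC. For all these 3 genes the groups did not overlap. The fall of Itgb2l had an edgeR adjusted p of 0.029, and the call ended without NC replicate 1, 2 or 3 (adjusted p = 0.0756, 0.082 and 0.0926).

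Levels per kilobase of exon, a rough way to set genes side by side, show how the makeup of the beta chains differed. The length is that of all annotated exons of a gene merged. A gene whose transcripts use only part of them is set too low, so shares and ratios between genes are approximate. Itgb7 made up 68.1%, 59.3% and 66.6% of the summed beta-chain level, Itgb3 left out, per AEL library, against 5.21%, 5.89% and 5.43% in NC. Itgb1 made up 29.1% to 34.3% in AEL and 41.4% to 50.1% in NC, and Itgb2 made up 0.834% to 5.33% in AEL and 29.7% to 36.7% in NC. Per kilobase, Itgb7 was at 1.73 to 2.34 times the level of Itgb1 in AEL and at 0.104 to 0.138 times in NC. The chain with the highest level per kilobase was Itgb1 in each NC library and Itgb7 in each AEL library.

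**Figure D2:**
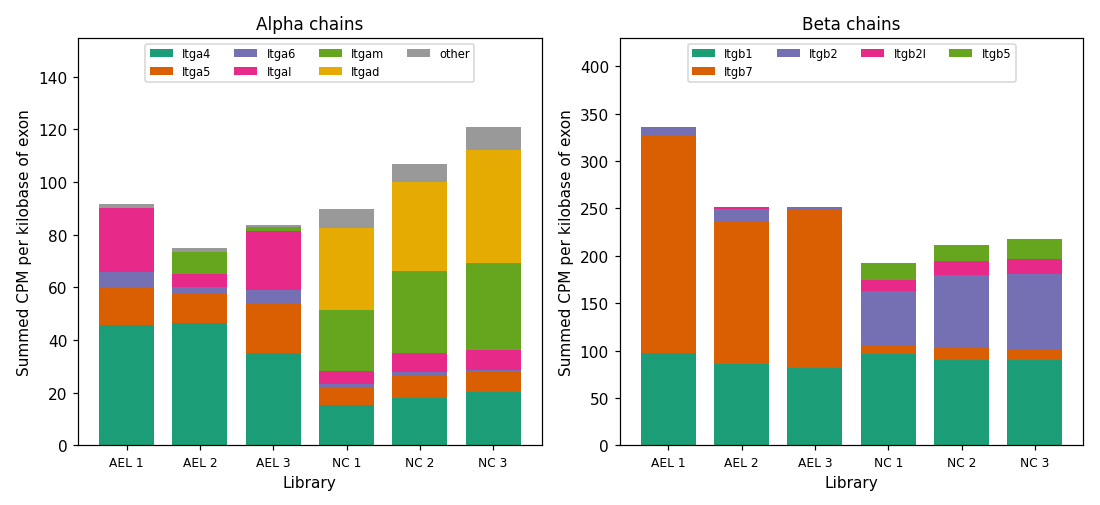
Summed level of the chosen alpha (left) and beta (right) integrin chains in each of the 6 libraries, in CPM per kilobase of exon (y axis), with each chain as a coloured part of the bar. Itga2b and Itgb3 are not in the bars. Itgb7 takes 59.3% to 68.1% of the beta bars in AEL and at most 5.89% in NC, where Itgb2 takes 29.7% to 36.7%.

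Of the alpha chains, Itga4, Itga5 and Itga6 rose. Itga4 (chr2:79255426-79333123) was at 638, 649 and 492 CPM in AEL and 214, 249 and 285 CPM in NC, without overlap, a 2.38-fold rise (log2 fold change 1.25, SE 0.17, edgeR adjusted p = 0.00138). Itga6, a laminin receptor chain of stem and progenitor cells (chr2:71745616-71858416), was at 56.2, 19.1 and 45.4 CPM in AEL and 8.0, 8.15 and 6.22 CPM in NC, a 5.39-fold rise (edgeR adjusted p = 0.00329). Itga5, the classical fibronectin receptor chain (chr15:103344286-103366763), was at 69.5, 56.7 and 92.2 CPM in AEL and 34.6, 44.7 and 37.6 CPM in NC. Its groups did not overlap either, and it rose 1.87-fold (edgeR adjusted p = 0.0113). That call ended without NC replicate 1 (adjusted p = 0.0503).

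Among the partners of Itgb2 on leukocytes, Itgad and Itgax fell, and Itgal and Itgam were not called. The 4 genes lie on chromosome 7, Itgal at chr7:127296260-127335138 and Itgam, Itgax and Itgad side by side from chr7:128062640-128118491 to chr7:128154376-128223816. Itgal, the alpha chain of LFA-1, which binds the Icam receptors, was at 158, 32.8 and 147 CPM in AEL and 34.1, 48.8 and 50.1 CPM in NC. AEL replicate 2 was below every NC library and the other AEL libraries were above them all. Its log2 fold change of 1.34 (SE 0.54) was not called (edgeR adjusted p = 0.0748), and without AEL replicate 2 it was 1.83 (adjusted p = 0.000412). It was also called by DESeq2 (adjusted p = 0.0204) and with library totals alone (adjusted p = 0.0462).

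Itgad, the alpha chain of a macrophage integrin that binds Vcam1, had a single count in the 3 AEL libraries together. Its level was 0, 0 and 0.0915 CPM there. In NC, where 4069 counts were found, it was 140, 153 and 195 CPM. The ratio of NC to AEL was 4743, with a 95% counting interval of 851 to 187401 (exact binomial). Itgax, a chain of dendritic cells and macrophages, was at 0.225, 1.85 and 0.366 CPM in AEL and 10.4, 8.15 and 11.2 CPM in NC, and it fell 12.1-fold (edgeR adjusted p = 0.0062).

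Itgam, the alpha chain of Mac-1 on neutrophils and monocytes, was at 0.225, 41.9 and 7.32 CPM in AEL and 116, 155 and 165 CPM in NC. The groups did not overlap, but AEL libraries spread widely, and the log2 fold change of -3.14 (SE 1.15) was not called (edgeR adjusted p = 0.0555). The gene was called without AEL replicate 1 (adjusted p = 0.0226), without AEL replicate 2 (log2 fold change -5.13, adjusted p = 0.00312), with the replicate block (adjusted p = 0.034) and by limma with pseudocounts 1 and 5 CPM (adjusted p = 0.0164 and 0.00595).

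Itgam and Itgb2l were highest in the AEL library that also held the most neutrophil RNA. In AEL replicates 1, 2 and 3 the neutrophil markers summed to 20.3, 1202 and 125 CPM, Itgam was at 0.225, 41.9 and 7.32 CPM and Itgb2l was at 0, 10.7 and 0.732 CPM. Itgb2 was at 29.3, 40.9 and 6.41 CPM, so AEL replicate 1 held more of it than replicate 3 with fewer neutrophil markers. The part of neutrophil RNA in these values was not tested.

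**Figure D3:**
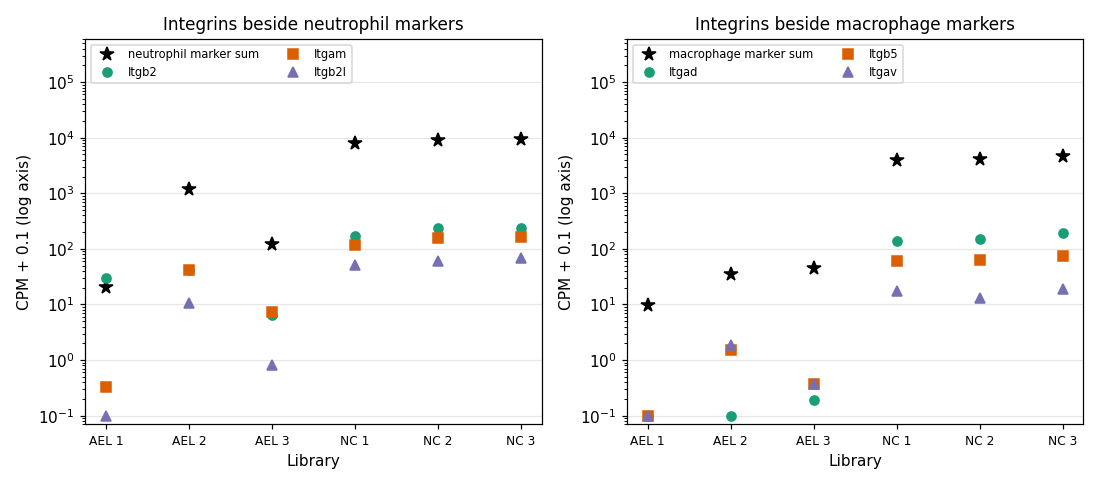
Left, the summed neutrophil markers with Itgb2, Itgam and Itgb2l; right, the summed macrophage markers with Itgad, Itgb5 and Itgav, in CPM + 0.1 on a log axis (y axis) for each of the 6 libraries (x axis). AEL replicate 2, with 1202 CPM of neutrophil markers, has the highest Itgam and Itgb2l of the AEL libraries, at 41.9 and 10.7 CPM.

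The alpha chains Itgav and Itga9 fell as well. Itgav, which pairs with several beta chains to bind vitronectin, fibronectin and latent TGF-beta (chr2:83724397-83806916), was at 0, 1.74 and 0.275 CPM in AEL and 17.5, 13.1 and 19.0 CPM in NC. It fell 24.4-fold (edgeR adjusted p = 0.00715). Itga9, a receptor chain for tenascin, osteopontin and Vcam1 (chr9:118606690-118901003), was at 0, 0.109 and 0.183 CPM in AEL, a total of 3 counts, and 21.2, 25.5 and 27.0 CPM in NC, a ratio of 239 with a 95% counting interval of 81.3 to 1160. Macrophage markers were lower in AEL too, at 9.57, 35.2 and 45.3 CPM summed in AEL replicates 1, 2 and 3. Each NC library held at least 3930 CPM of them. Within AEL, Itgav and Itgb5 were highest in replicate 2, and Itga9 and Itgad, with few counts, in replicate 3. Neutrophil, B cell and stromal markers were also lower in AEL. The part of any of these cell types in the falls of Itgav, Itga9, Itgad and Itgb5 was not tested.

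The other alpha chains were scarce in both groups, at most 6.30 CPM in any library. Itga7, a laminin receptor chain of muscle, was at 1.80, 6.30 and 0.366 CPM in AEL and had 2 counts over the 3 NC libraries. Itgae, which pairs with Itgb7 on lymphocytes of epithelia, was at 0.549 to 1.13 CPM in AEL and 0.774 to 1.42 CPM in NC. Neither reached the filter. Itga1 and Itga10, collagen receptor chains, were tested and not called. Itga1 was at 0, 1.19 and 0.458 CPM in AEL against 1.29 to 2.42 CPM in NC, and it was called lower without AEL replicate 2 (adjusted p = 0.0339) and, barely, by limma with a pseudocount of 1 CPM. Itga10 was at 0.76 to 5.74 CPM in AEL and 1.89 to 3.61 CPM in NC.

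In all, 3 of 11 tested alpha chains were called higher and 4 lower, and of 5 beta chains 1 was higher and 3 were lower. For the alpha chains these shares lie near the 23.9% higher and 29.0% lower of all genes tested. Per kilobase Itga4 made up 42.1% to 61.9% of the summed alpha-chain level in AEL and 16.6% to 17.0% in NC. Itga2b is not in this sum. It was at 44.8, 6.11 and 9.53 CPM per kilobase in AEL replicates 1 to 3 and 2.66 to 4.14 in NC. Itga4 was at 45.6, 46.4 and 35.2 in AEL and 15.3 to 20.4 in NC. With Itga2b counted the share of Itga4 would be smaller, most of all in AEL replicate 1. In NC Itgad made up 31.7% to 35.8% and Itgam 25.6% to 28.9%. The shares of Itga4 and Itgad rest on merged exon lengths of 13978 and 4510 bases. The summed alpha level itself was 75.1 to 91.7 CPM per kilobase in AEL and 89.9 to 121 in NC, ranges that overlap, while the summed beta level was 252 to 336 in AEL and 192 to 217 in NC. The platelet pair outside the chosen genes moved in opposite directions: Itga2b was at 244, 33.3 and 52.0 CPM in AEL and 14.5 to 22.6 CPM in NC, and Itgb3 was at 0.869 to 3.38 CPM and 12.9 to 19.2 CPM. Itga2b was called higher (log2 fold change 2.51, or 1.23 without AEL replicate 1, edgeR adjusted p = 0.0283), a call lost without NC replicate 1, 2 or 3 (adjusted p = 0.0859, 0.077 and 0.102), and Itgb3 lower (adjusted p = 0.00296).

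**Figure D4:**
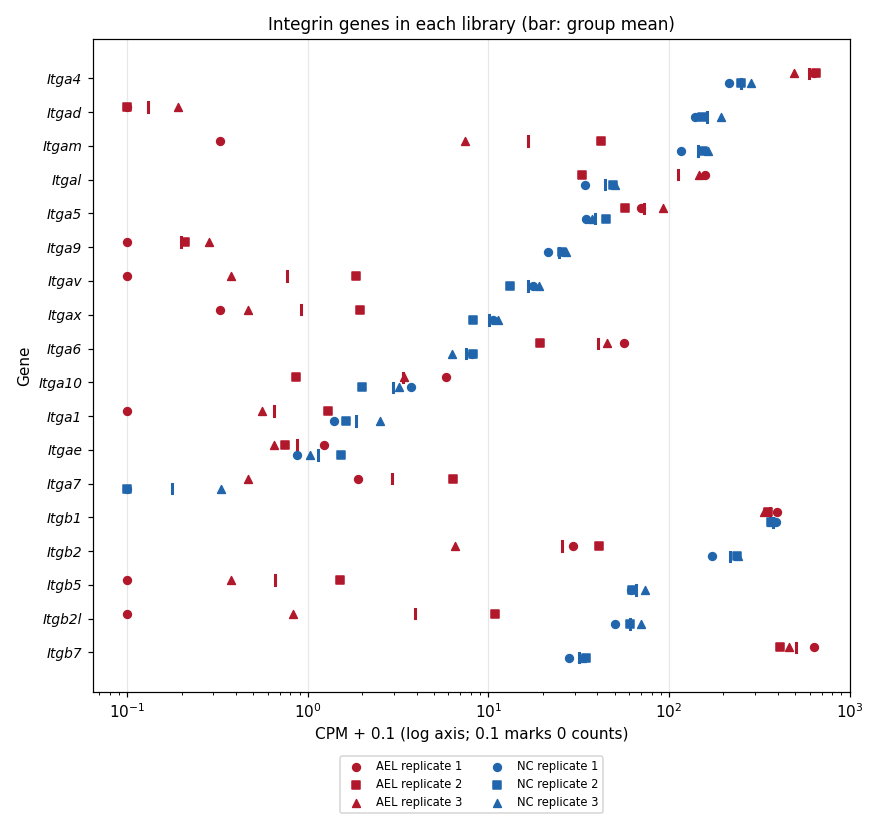
CPM + 0.1 on a log axis (x axis) of each integrin gene (y axis), 13 alpha chains above 5 beta chains; each symbol is a library, red for AEL and blue for NC, and short bars are group means. Itgb7 is at 413 to 633 CPM in AEL against 27.7 to 34.5 CPM in NC, while Itgb1 overlaps between the groups.

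Among the matrix genes 1 collagen was abundant in AEL. Col5a1, a chain of the type V collagen that starts fibrils and limits their width (chr2:27886425-28039514), was at 279, 429 and 395 CPM in AEL and 107, 104 and 101 CPM in NC. The groups did not overlap and the gene rose 3.54-fold (log2 fold change 1.82, SE 0.18, edgeR adjusted p = 0.000474). Per kilobase it made up 90.2%, 90.6% and 91.5% of the summed collagen level in AEL and 35.5%, 38.3% and 32.4% in NC. Without Col5a1 the collagens summed to 3.56 to 5.27 CPM per kilobase in AEL and 19.7 to 24.8 in NC. Col5a3, another type V chain, went the other way, from 4.95 to 6.38 CPM in NC to 0.225 to 0.458 CPM in AEL, a 16.6-fold fall (edgeR adjusted p = 0.000557).

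Col14a1 fell in AEL. It encodes a collagen that sits on the surface of fibrils (chr15:55307750-55520803), and it was at 0.113, 0.326 and 0.183 CPM in AEL and 72.0, 71.3 and 87.1 CPM in NC. It fell 348-fold (log2 fold change -8.44, SE 0.30, edgeR adjusted p = 4.27e-05) and made up 29.0% to 33.9% of the summed collagen level per kilobase in NC.

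Type I collagen, the main collagen of bone, is built of Col1a1 and Col1a2 chains, and both are given here in full. Col1a1 (chr11:94936224-94953042) was at 0, 0.326 and 0 CPM in AEL, a total of 3 counts, and 26.1, 12.5 and 18.8 CPM in NC, a ratio of 183 with a 95% counting interval of 62.2 to 891. Col1a2 (chr6:4504814-4541544) was at 0.563, 21.2 and 4.03 CPM in AEL and 28.4, 14.7 and 21.8 CPM in NC. AEL replicate 2 lay within the NC range. The log2 fold change of -1.33 (SE 1.01) was not called (edgeR adjusted p = 0.301), and without AEL replicate 2 it was -3.12 (adjusted p = 0.0117). Per kilobase Col1a2 was at 0.575 to 0.618 times the level of Col1a1 in the NC libraries and at 34.3 times in AEL replicate 2. These ratios rest on merged exon lengths of 12426 bases for Col1a2 and 6563 for Col1a1. Whether the 2 chains differ in their change was not tested.

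The other fibrillar chains were lower in AEL at small counts. Col3a1, which accompanies type I collagen in soft tissue, was at 0 in every AEL library and at 1.42 to 2.42 CPM in NC, at least 5.19-fold lower taking 3 counts in the shallowest AEL library as the floor. Col27a1, of cartilage, was at 0 to 0.543 CPM in AEL and 2.84 to 4.38 CPM in NC (edgeR adjusted p = 0.00603). Col11a2, also of cartilage, was at 7.66, 2.39 and 5.86 CPM in AEL and 11.6, 11.9 and 17.6 CPM in NC. Its fall of 1.37 on the log2 scale (SE 0.46, edgeR adjusted p = 0.0404) was not called without AEL replicate 3, without NC replicate 1, 2 or 3, or with library totals alone (adjusted p = 0.0592, 0.0828, 0.0857, 0.141 and 0.0596). Col2a1, the main collagen of cartilage, was at 0 to 0.366 CPM in AEL and 1.16 to 1.73 CPM in NC, a call lost without NC replicate 1, 2 or 3 (adjusted p = 0.0516, 0.0674 and 0.0687).

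The basement membrane collagens split by chain. Col4a1 and Col4a2 form the common type IV network and are transcribed away from each other from chromosome 8, where their annotated ends overlap (chr8:11198423-11312826 and chr8:11312805-11449287). Col4a1 had 2 counts in AEL in all and 3.80 to 4.13 CPM in NC, a ratio of 57.1 with a counting interval of 15.4 to 478. Col4a2 had 3 counts in AEL and 2.01 to 2.65 CPM in NC, a ratio of 21.8 (7.07 to 109). Col4a3, a chain of the specialised network of kidney and lung, was at 4.17, 6.51 and 4.21 CPM in AEL and 0.387, 0 and 0.115 CPM in NC, and it rose by 4.82 on the log2 scale (SE 0.74, edgeR adjusted p = 0.00226). Col18a1, the source of endostatin, was at 1.09 to 1.58 CPM in AEL and 0.591 to 1.84 CPM in NC and was not called. Its relative Col15a1 did not reach the filter, at 0.549 to 1.35 CPM and 0.258 to 0.461 CPM.

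Of the remaining collagens Col6a1 and Col6a2, neighbours on chromosome 10 that form beaded filaments, had 0 and 1 counts in AEL. Col6a1 was at 0 in every AEL library and at 0.806 to 2.48 CPM in NC, at least 5.54-fold lower against the floor. It did not reach the filter and was not tested. Col6a2 had 1 count in AEL and 46 in NC, a ratio of 53.6 (counting interval 9.16 to 2164). Col19a1 was at 0 throughout AEL and at 1.27 to 1.42 CPM in NC, at least 3.93-fold lower. Col7a1, of the anchoring fibrils of skin, and Col20a1 were not called, at 0.338 to 1.65 and 7.54 to 11 CPM in AEL against 2.07 to 2.60 and 4.90 to 8.29 CPM in NC. Of 17 tested collagens 2 were called higher, Col5a1 and Col4a3, and 11 were called lower, beside 23.9% and 29.0% of all genes tested. All of the 11 but Col11a2 passed the filter through NC alone, and Col4a3 through AEL alone. Such genes had to differ, so the filter had a part in these counts, and how large a part was not tested.

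Lamc1, the gamma chain shared by most laminins, rose in AEL. It lies at chr1:153218922-153332786 and was at 86.8, 66.8 and 33.1 CPM in AEL and 2.45, 1.89 and 2.19 CPM in NC. Every AEL library was far above every NC library, and the gene rose 28.4-fold (log2 fold change 4.83, SE 0.42, edgeR adjusted p = 0.000361). A laminin is built of an alpha, a beta and a gamma chain. Lama5, the only other laminin chain among the 46 genes, was at 1.35, 3.58 and 0.0915 CPM in AEL and 0.129 to 0.591 CPM in NC. Its groups overlapped, and it did not reach the filter. No laminin beta chain was among the 46 genes.

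Thrombospondin and fibronectin varied widely between the AEL libraries. Thbs1, an adhesive protein of platelets that binds Cd47 (chr2:118111876-118127133), was at 38.4, 6.73 and 1.10 CPM in AEL and 56.8, 66.7 and 83.1 CPM in NC. The groups did not overlap, yet the log2 fold change of -2.17 (SE 1.01) was not called (edgeR adjusted p = 0.111), and it was called without AEL replicate 1 (-4.09, adjusted p = 0.00395) and by limma with pseudocounts 1 and 5 CPM (adjusted p = 0.0307 and 0.019). Fn1, fibronectin, a ligand of Itga4 and Itga5 (chr1:71585520-71653200), was at 2.81, 149 and 45.9 CPM in AEL and 62.8, 85.8 and 96.5 CPM in NC. AEL replicate 2 lay above every NC library and the other AEL libraries below them all. Its log2 fold change was -0.31 (SE 1.02, edgeR adjusted p = 0.813) and turned to 0.32 without AEL replicate 1.

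Of the matrix genes of stroma, Sparc and Bgn fell in AEL, and Dcn was not tested. Sparc, which binds collagen in bone, was at 0, 0.76 and 0.732 CPM in AEL and 16.9, 12.3 and 10.8 CPM in NC, a 25.6-fold fall (edgeR adjusted p = 0.00295). Bgn, biglycan, a small proteoglycan of bone, was at 0.113 to 0.434 CPM in AEL and 4.26 to 7.21 CPM in NC, a 23.2-fold fall (edgeR adjusted p = 0.000947). Dcn, decorin, its close relative, was at 0, 0.434 and 7.69 CPM in AEL and 0.774 to 1.65 CPM in NC, so AEL replicate 3 alone lay above NC, and it did not reach the filter. Stromal and endothelial markers were lower in AEL in the same libraries, at 5.18, 10.5 and 5.95 CPM summed in AEL replicates 1, 2 and 3, and their part in the falls of Sparc, Bgn and the collagens was not tested.

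**Figure D5:**
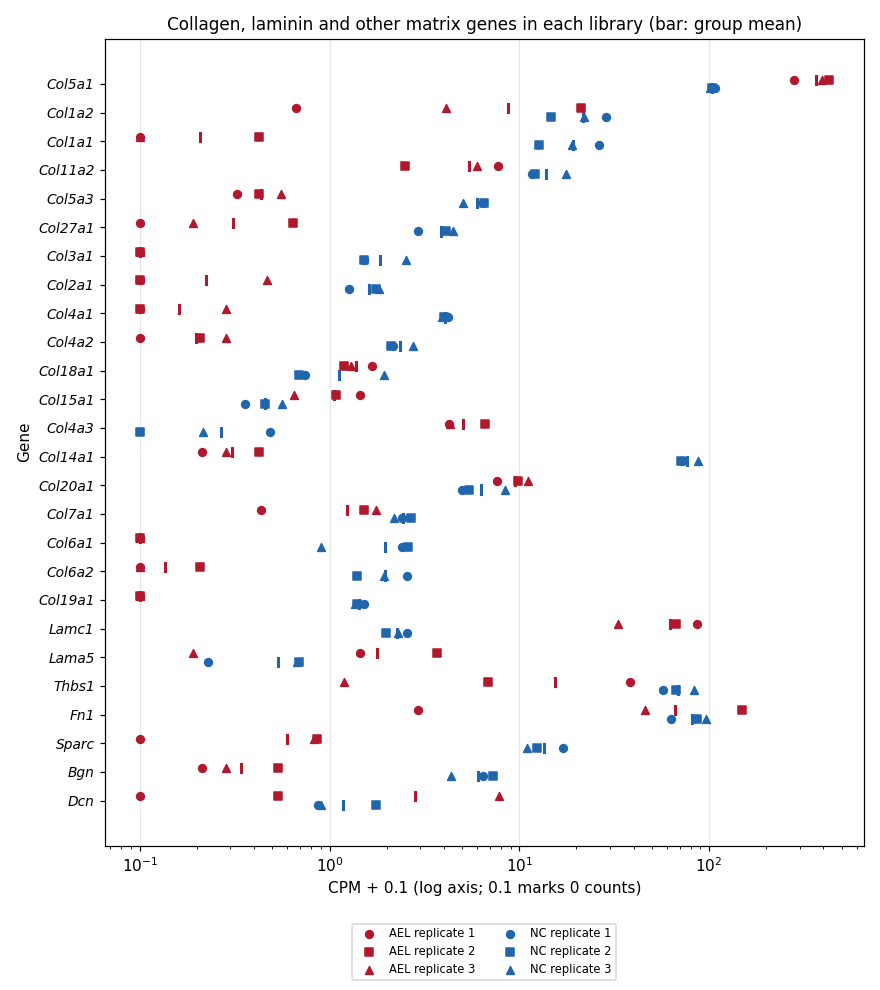
CPM + 0.1 on a log axis (x axis) of each collagen, laminin, thrombospondin and other matrix gene (y axis); each symbol is a library, red for AEL and blue for NC, and short bars are group means. Col5a1 and Lamc1 lie above NC in all AEL libraries, while Col1a2, Fn1 and Dcn spread widely within AEL.

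The AEL libraries differed in how many of the 46 genes they held. AEL replicate 1 had no count for 17 of them, and AEL replicates 2 and 3 had none for 6 and 5, against 0 to 2 in the NC libraries. Of the 20 genes called lower, 14 were at 0 in AEL replicate 1, and 11 had their highest AEL level in replicate 2. These 20 genes summed to 37.6, 62.1 and 16.6 CPM in AEL replicates 1, 2 and 3 and to 629 to 798 CPM in NC. All 46 genes together took 0.24% to 0.259% of counts in AEL and 0.17% to 0.197% in NC. Over all 46 genes, the untested ones included, the groups did not overlap for 35, 10 with AEL above NC and 25 below, while 29.9% and 36.1% of all genes tested were apart in these directions.

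For several genes with few counts in AEL, 1 library set how large the fitted fall was. Their calls held in the fits given here. Others moved less: with 1 library left out Col14a1 was at -8.82 to -8.12 and Col5a3 at -4.32 to -3.78. Without AEL replicate 2 the log2 fold change went to -8.60 for Itgb5, -6.61 for Itgav, -4.93 for Itgax, -7.14 for Itgb2l, -5.83 for Col27a1 and -5.13 for Bgn. Without AEL replicate 3 it went to -8.43 for Itga9, -6.70 for Col1a1 and -4.99 for Col4a2. Col1a1 and Col6a2 had no count in AEL without AEL replicate 2, nor had Itgad, Col4a1 and Col2a1 without AEL replicate 3, so that no size is given for them. Without AEL replicate 1 it went to -6.25 for Itgb5, -4.00 for Itgav, -3.35 for Itgb2l, -3.49 for Col27a1 and -4.06 for Sparc, and without NC replicate 1 the rise of Col4a3 went to 6.12.

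The 2 genes that only share a name moved little. Col4a3bp, a ceramide transfer protein, was at 58.9 to 63.6 CPM in AEL and 42.4 to 48.8 CPM in NC, a 1.38-fold rise (edgeR adjusted p = 0.0193). It was not called without NC replicate 1 or 2 or with the replicate block (adjusted p = 0.0824, 0.0825 and 0.0658). Itgb3bp, a centromere protein, was at 5.43 to 10.2 CPM in AEL and 8.63 to 14.7 CPM in NC and was not called. Leaving both out, 7 of 38 tested genes were called higher and 20 lower.

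The machinery that links integrins to actin was called in part. Of 41 tested genes 7 were higher and 15 lower, where 23.9% and 29.0% of all genes tested were. Ptk2, focal adhesion kinase, was at 40.0, 67.4 and 39.7 CPM in AEL and 9.81 to 10.3 CPM in NC, for a log2 change of 2.28 (SE 0.26). Fermt3, kindlin-3, the integrin activator of blood cells, was at 1109, 1014 and 395 CPM in AEL and 341 to 353 CPM in NC (edgeR adjusted p = 0.0233), and its call ended without NC replicate 1, 2 or 3 (adjusted p = 0.0758, 0.0771 and 0.0758). Flna, filamin A, which ties beta tails to actin, rose 2.06-fold. Lower were Actn1, an actin cross-linker, at -5.48 (SE 0.96), Rasgrp2, which activates Rap1 in platelets and leukocytes, at -5.03 (SE 0.77), and Tns3, a tensin, at -4.80 (SE 0.59). Without AEL replicate 1 Actn1 was at -4.85 and Rasgrp2 at -4.43, and without AEL replicate 2 they were at -7.27 and -6.08. Without NC replicate 1, 2 or 3 the number higher was 2, 2 and 3.

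Of 25 tested integrin ligands and counter-receptors 4 were higher and 12 lower, beside 23.9% and 29.0% of all genes tested. Vcam1 is also 1 of the 14 macrophage markers, all called lower, whose part in this list's falls was not tested. Vcam1, the macrophage partner of Itga4, was at 0.338, 1.09 and 2.47 CPM in AEL and 949, 1011 and 1175 CPM in NC, for a log2 change of -9.58 (SE 0.54), and Icam1 was at -4.62 (SE 0.32). Vcam1 was at -10.45 without AEL replicate 3. Spp1, osteopontin, was at -3.51 (SE 0.90), or -2.87 without AEL replicate 1, a call lost without NC replicate 1 or 3 (edgeR adjusted p = 0.0648 and 0.0529). Icam2, a ligand of LFA-1, went the other way, at 44.7, 44.8 and 65.8 CPM in AEL and 5.55 to 8.64 CPM in NC. Tgfb1, whose latent form binds Itgav pairs, rose 3.62-fold. Npnt, nephronectin, was at 12.0, 5.32 and 15.9 CPM in AEL, and 1 count was found in NC.

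Of 20 tested genes that modify or cross-link collagen 6 were higher and 6 lower, shares near the 23.9% and 29.0% of all genes tested. Adamts3, a protease that trims procollagen, was at 90.5, 96.0 and 87.1 CPM in AEL and 4.77 to 5.55 CPM in NC, for a log2 change of 4.11 (SE 0.15, edgeR adjusted p = 4.27e-05). P3h1, a prolyl hydroxylase, rose 2.33-fold, a call lost without NC replicate 1, 2 or 3 (adjusted p = 0.0823, 0.0614 and 0.077) and with the replicate block (adjusted p = 0.0621), and Sec23a, of the coat that exports procollagen, rose 1.64-fold. Tgm2, a cross-linking transglutaminase, was at -5.71 (SE 0.49), or -6.47 without AEL replicate 1, and Plod1, a lysyl hydroxylase, at -4.46 (SE 0.30). Ppib, a helper of collagen folding, was at -0.89 (SE 0.24), a call lost without AEL replicate 3 or NC replicate 1, 2 or 3 (adjusted p = 0.0643, 0.0573, 0.0548 and 0.0669).

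Of 24 tested proteases and inhibitors of the matrix 18 were called lower and 2 higher, beside 29.0% and 23.9% of all genes tested. Mmp14, a membrane-bound collagenase, was at 242, 308 and 175 CPM in AEL and 57.7 to 85.8 CPM in NC, a 3.25-fold rise. Ctsk, the osteoclast protease cathepsin K, was at -6.99 (SE 0.88), Timp2, an inhibitor of metalloproteases, at -6.86 (SE 0.58) and Plau, urokinase, at -6.05 (SE 0.72). Without AEL replicate 2 they were at -8.31, -7.90 and -7.25, and Ctsk was at -6.34 without AEL replicate 3 and -6.40 without NC replicate 1. Elane of this list is also 1 of the neutrophil markers, and neutrophil and macrophage markers were lower in AEL in the same libraries; their part was not tested. Without AEL replicate 3 or NC replicate 1 or 2 the number higher was 1, and without NC replicate 2 or 3 the number lower was 12.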

How the data were processed

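Poly-A RNA of sorted mouse marrow cells was sequenced for 3 AEL and 3 NC samples. The authors deposited 1 table of counts per gene; its name speaks of CPM, but the values are whole and their totals differ, at 8171676 to 9945330 per library. Per the submitters' processing notes, mm10 and edgeR 3.32.1 were used, with no role stated. Aligner, counter and strand setting: not given in the sources used here, so reads of overlapping genes cannot be told apart.

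Genes reaching 1 CPM in 3 or more libraries (12427 of 13007) were tested with edgeR 4.0.16 (R 4.3.3): TMM scaling, quasi-likelihood test, the group as the only term, Benjamini-Hochberg adjustment over all genes tested. SEs were derived from each log2 fold change and its F statistic, as the change over the root of F. CPM values use totals multiplied by TMM factors of 0.925 to 1.10. A gene at 0 in a group was set against a floor of 3 counts in that group's shallowest library (0.338 CPM in AEL). Ratios at 1 to 3 counts carry exact 95% intervals of the pooled counts. Floors and intervals cover counting error only. Limma 3.58.1, DESeq2 1.42.0 and other scalings, filters and sets of libraries were alternatives. Coordinates and exon lengths, with all annotated exons of a gene merged, came from GENCODE vM21 (GRCm38), which matched all 46 symbols. The test was checked on simulated counts.

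Members averaging 10 CPM or above in either group are given in full, the rest by range. For each pathway list up to 3 called genes per direction are named, the largest changes at 10 CPM or more; other named genes were added for their role. The members, lists and rules were chosen with earlier results of these data known.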

Additional observations from a re-analysis of the deposited data

How the results depend on the processing

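With 3 libraries a group the precision is limited by the spread within AEL, and genes under about 3 counts a library cannot be ranked. Of 40 tested genes 26 had a value in all 16 alternatives, and 16 of these kept their direction and their side of the threshold throughout, among them 14 of 18 called. The other 14 genes did not reach the filter of 5 CPM, and 11 of them kept both in the alternatives that gave a value. With a filter of 5 CPM, under which fewer genes were tested, 11 of the genes were called lower in place of 20, and 6 ligands and counter-receptors in place of 12. With 1 library left out, the number called lower was 17 to 23 and the number called higher 6 to 9. Over all genes the number higher was 1915 to 3375 against 2964, the higher adhesion genes 2 to 8 and the higher proteases and inhibitors 1 to 2; the cause was not tested. Reversals were found only for genes that were not called. Itgb1 was at 0.13 with library totals alone and at -0.073 to 0.024 with 1 library left out. Itga10 was at -0.035 with limma at a pseudocount of 1 CPM, at -0.10 with the replicate block and at -0.40 to 0.68 with 1 library left out. Fn1 was at -1.65 to 0.32 with 1 library left out.

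The replicate block gave 21 genes lower and 7 higher. Same-numbered libraries of the groups did not deviate together (correlations of 0.0824, -0.0167 and -0.0314 for numbers 1 to 3), so the numbers were not taken as pairs. AEL replicates 2 and 3 each correlated best with another number, at 0.0904 with NC replicate 3 and 0.0402 with NC replicate 2.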
